A study of Canis lupus familiaris with 4 samples.

Results

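miR-146a, miR-146b and miR-155 are described here in the small RNA of extracellular vesicles (EVs) from a pair of canine mammary carcinoma cell lines. They were chosen by name, as miRNAs that respond to NF-kB, and are 3 of the 673 rows of the deposited miRNA table, cfa-mir-146a, cfa-mir-146b and cfa-mir-155. The cell line CHMp was established from a primary mammary gland tumor and CHMm from a metastasis of the same dog, so each line stands for a single tumor site of 1 animal. EVs of CHMp are called pTDEs and EVs of CHMm mTDEs, with 2 libraries for each. Both lines were grown in medium with fetal bovine serum and gentamicin. They were then kept in serum-free medium before their EVs were collected by ultrafiltration and ultracentrifugation. The labels name no drug and no introduced gene for either line. The paper also describes CHMp and CHMm cells given a luciferase gene and selected with geneticin. It does not say whether the sequenced EVs came from those cells. The comparison asks which miRNAs EVs of the primary tumor line carry at other levels than EVs of the metastatic line.

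miR-146a and miR-146b are made from separate genes and share a seed, the stretch near the start of a miRNA that pairs with its targets. They are known to repress TRAF6 and IRAK1, which pass signals from Toll-like and interleukin-1 receptors to NF-kB, so that NF-kB, which induces miR-146a, is held back by it. miR-155 is cut from the noncoding transcript BIC, which NF-kB and AP-1 induce, and is known to repress SOCS1 and INPP5D, which restrain cytokine and PI3K signaling. miR-146a and miR-155 are best known from leukocytes, and both families have been studied in breast carcinoma. In the RefSeq annotation of the dog assembly UU_Cfam_GSD_1.0, the 3 members matched a gene by name. MIR146A lies next to the coding gene PTTG1, MIR146B next to CUEDC2 within the span of a long noncoding RNA gene, and MIR155 next to MRPL39.

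Levels are CPM, counts scaled so that a whole library totals 1000000, recovered from the deposited values. The libraries held from 2.33M to 6.30M recovered reads (M, 1000000 reads), and the pTDE libraries were the deeper ones. Where a miRNA had no read, its level was limited to 3 reads. That limit was 0.476 and 0.594 CPM for pTDE replicates 1 and 2, and 0.868 and 1.29 CPM for mTDE replicates 1 and 2. These limits and the binomial intervals on reads cover counting error only, and, as forward and reverse reads were merged before quantification, they are too narrow where both reads of a fragment were counted. Of the 326 rows tested, 148 (45.4%) had their highest level in mTDE replicate 2, more than in any other library. The summed level of 7 epithelial miRNAs was 73.9 and 104 CPM in the pTDE libraries and 23718 and 26413 CPM in the mTDE libraries. The epithelial miRNAs cfa-mir-141, cfa-mir-200a, cfa-mir-200b and cfa-mir-429 were listed at 0 in both pTDE libraries, although both lines are labeled as mammary adenocarcinoma.

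miR-155 was abundant and both miR-146 miRNAs were far lower in every library. cfa-mir-155 was at 9027 and 14316 CPM in pTDE replicates 1 and 2 and at 3708 and 5803 CPM in mTDE replicates 1 and 2. It thus made up 0.903% and 1.43% of the pTDE libraries and 0.371% and 0.580% of the mTDE libraries, and ranked 20 and 14 in pTDEs and 34 and 33 in mTDEs. cfa-mir-146a was at 29.1 and 44.3 CPM in pTDEs and at 20.2 and 84.9 CPM in mTDEs. cfa-mir-146b was at 33.5 and 36.6 CPM in pTDEs, was listed at 0 in mTDE replicate 1, and was at 30.0 CPM in mTDE replicate 2. By mean over the 4 libraries, cfa-mir-155 ranked 24, cfa-mir-146a 177 and cfa-mir-146b 201 of the 461 rows above 0. The median of these means over the tested rows was 59.0 CPM, which lies between the mean of cfa-mir-155 and those of the miR-146 miRNAs. In mTDE replicate 2, cfa-mir-146a was above that value. None of the 3 members passed an adjusted p-value of 0.05 with limma, against 1.84% of all rows tested, and limma voom called none either. At an unadjusted p-value under 0.05, cfa-mir-155 alone passed, 1 of 3 members against 19.6% of all rows in either direction and 10.1% higher in pTDEs. Both pTDE libraries lay above both mTDE libraries for 2 of the 3 members, cfa-mir-146b and cfa-mir-155, against 26.1% of all rows. cfa-mir-146b entered the test through the pTDE libraries alone, so this count is given as a description. The opposite order was found for 0 of the 3 members and for 27.3% of all rows.

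**Figure D1:**
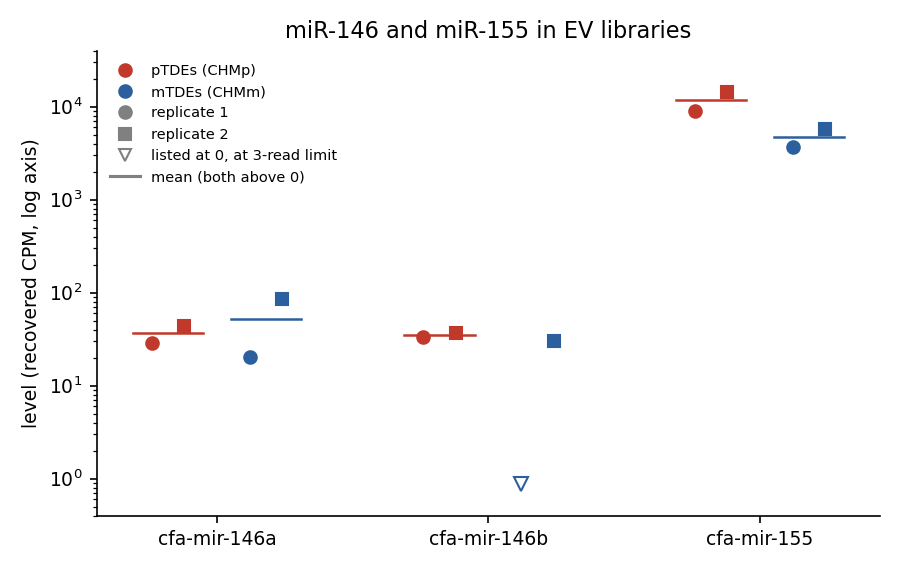
Level of each member in each library in recovered CPM on a log axis, with pTDEs in red, mTDEs in blue, circles for replicate 1 and squares for replicate 2; lines are means where both libraries were above 0, and the open triangle stands at the 3-read limit. cfa-mir-155 lies between 3708 and 14316 CPM, both miR-146 miRNAs lie under 100 CPM, and cfa-mir-146b is listed at 0 in mTDE replicate 1.

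cfa-mir-155 was higher in both pTDE libraries than in both mTDE libraries, but the difference did not pass the threshold. Its mean level in pTDEs, 11672 ± 3740 CPM, was 2.45-fold that in mTDEs, 4756 ± 1482 CPM (SD, n = 2 for each). The lowest pTDE library was 1.56-fold above the highest mTDE library, about as far apart as the replicates of a cell line, which differed 1.59-fold in pTDEs and 1.57-fold in mTDEs. The log2 fold change, pTDEs over mTDEs on log2(CPM + 1), was 1.29 (standard error 0.44, 95% interval 0.13 to 2.46). Its unadjusted p-value was 0.036 and its adjusted p-value 0.20 (limma with Benjamini-Hochberg adjustment over 326 rows). Among all rows tested it ranked 62 from the highest log2 fold change. With median-ratio size factors, which set the rows found in all libraries to a common level, cfa-mir-155 was at 4267 and 4266 CPM in the mTDE replicates and at 10037 and 15221 CPM in the pTDE replicates. The log2 fold change was then 1.53, with an adjusted p-value of 0.12 (limma). With the deposited values read as CPM, the log2 fold change was only 0.26. Over 12 other fits the adjusted p-value lay between 0.12 and 0.52. The unadjusted p-value was 0.085 without a variance trend, and between 0.061 and 0.17 when any single library was left out (limma), so it no longer passed in those 5 fits.

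By mean level, cfa-mir-155 stood between cfa-mir-183 at 9145 CPM and cfa-mir-27b at 8207 CPM. Those neighbors had log2 fold changes of -0.91 and -0.48, and the spread of all 3 miRNAs over the libraries was larger than the gaps between their means. The pattern over the 4 libraries was compared by the Euclidean distance between log2(CPM + 1), each miRNA centered on its own mean. cfa-mir-30a was nearest to cfa-mir-155, at a distance of 0.37, with 2293 and 3991 CPM in pTDEs and 744 and 1274 CPM in mTDEs. cfa-mir-196a-2 and cfa-mir-450a followed, each at a distance of 0.50. With 4 libraries and 326 rows, near patterns are a description only.

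cfa-mir-146a did not separate the cell lines. Its lowest and its highest library were both mTDE libraries, with the pTDE libraries in between. The pTDE mean, 36.7 ± 10.8 CPM, lay within the spread of the mTDE mean, 52.6 ± 45.7 CPM (SD, n = 2 for each). The log2 fold change was -0.21 (standard error 1.04, limma adjusted p = 0.93). Its 95% interval, from -3.01 to 2.59, leaves room for differences of several fold in either direction. The mTDE replicates differed 4.20-fold, from 70 to 198 reads, and the pTDE replicates 1.52-fold, from 183 to 224 reads. The log2 gap between replicates was 2.02 in mTDEs, where the median over the tested rows was 0.91, and 92 of 326 rows had a larger gap. The direction depended on single libraries, since the log2 fold change was 0.80 without mTDE replicate 2 and 0.085 without pTDE replicate 1, but -1.22 without mTDE replicate 1 and -0.51 without pTDE replicate 2.

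miRNAs of blood cells were highest in the same library as cfa-mir-146a, the one where the most rows peaked. cfa-mir-142, a miRNA of blood cells in general, was at 10.2 and 20.2 CPM in pTDEs and at 12.2 and 73.4 CPM in mTDEs. cfa-mir-451, which marks red cells, was at 123 and 465 CPM in pTDEs and at 138 and 1423 CPM in mTDEs. cfa-mir-486-3p, also of red cells, was at 110 and 349 CPM in pTDEs and at 486 and 1397 CPM in mTDEs. All 5 of the 6 listed miRNAs above 0 were highest in mTDE replicate 2, against 45.4% of all rows tested. Their lowest library was pTDE replicate 1, whereas that of cfa-mir-146a was mTDE replicate 1. Their summed level was 261 and 893 CPM in pTDE replicates 1 and 2 and 706 and 3018 CPM in mTDE replicates 1 and 2, and cfa-mir-144, another miRNA of red cells, was at 0 in every library. The other members of the list were cfa-mir-150 of lymphocytes, from 5.56 to 46.8 CPM, and cfa-mir-223 of myeloid cells, from 12.4 to 78.1 CPM. The 5 tested had log2 fold changes from -2.07 to -0.89. limma called 0 of them, against 1.84% of all rows, and 0 had an unadjusted p-value under 0.05, against 19.6% of all rows, so with 5 rows these counts do not set the list apart. The part of these miRNAs in the level of cfa-mir-146a was not tested.

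**Figure D2:**
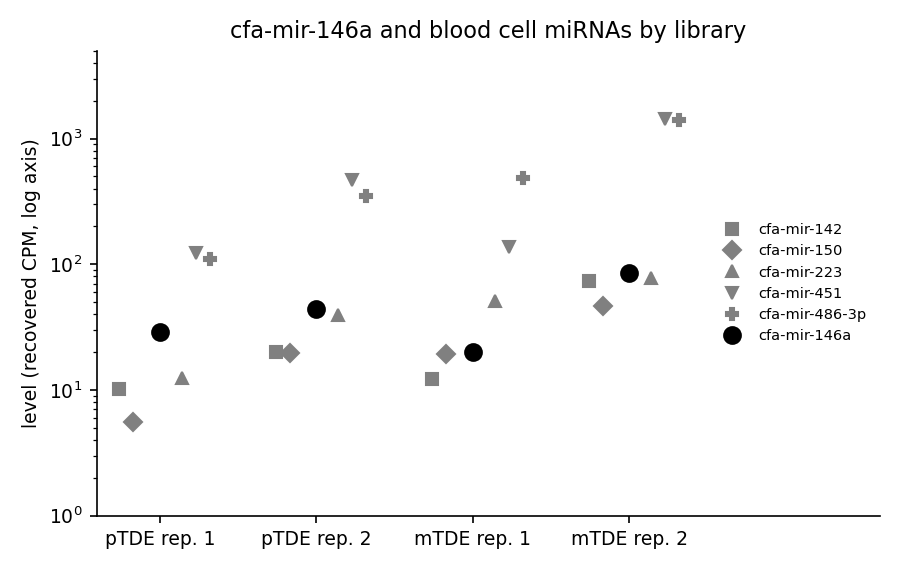
Level of cfa-mir-146a (black) and of the 5 blood cell miRNAs above 0 (grey) in each library, in recovered CPM on a log axis, with symbols set apart sideways for legibility. All are highest in mTDE replicate 2, as are 45.4% of all rows tested, and cfa-mir-146a reaches 84.9 CPM there.

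The 3 patterns nearest to that of cfa-mir-146a were those of cfa-mir-381, cfa-mir-30b and cfa-mir-454, at distances of 0.24, 0.30 and 0.39. cfa-mir-30b, at a far higher level, was at 2217 and 4215 CPM in pTDEs and at 1537 and 6316 CPM in mTDEs. By mean level, cfa-mir-146a, at 44.6 CPM, stood between cfa-mir-145 at 45.1 CPM and the predicted cfa_novel_80 at 43.6 CPM, gaps far under the spread of each over the libraries.

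cfa-mir-146b was even in pTDEs and split in mTDEs. The pTDE replicates held 211 and 185 reads, with a log2 gap of 0.12, and 292 of 326 rows had a larger gap. mTDE replicate 2 held 70 reads and mTDE replicate 1, the deeper of the mTDE libraries, held none. At the level of mTDE replicate 2, 104 reads would be found in a library of the size of mTDE replicate 1. The log2 gap between the mTDE replicates was 4.96, and 11 of 326 rows had a larger one. The mean in pTDEs, 35.0 ± 2.19 CPM (SD, n = 2), exceeded what 3 reads would give in mTDE replicate 1 by at least 40.4-fold, but was 1.17-fold higher than the level in mTDE replicate 2. For cfa-mir-146b limma fitted a log2 fold change of 2.69 (standard error 1.86, 95% interval -2.30 to 7.68, adjusted p = 0.45). Without mTDE replicate 1 it was 0.21 (limma adjusted p = 0.80), and without mTDE replicate 2 it was 5.17 (limma adjusted p = 0.13), so the size of the difference rests on which mTDE library is read.

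**Figure D3:**
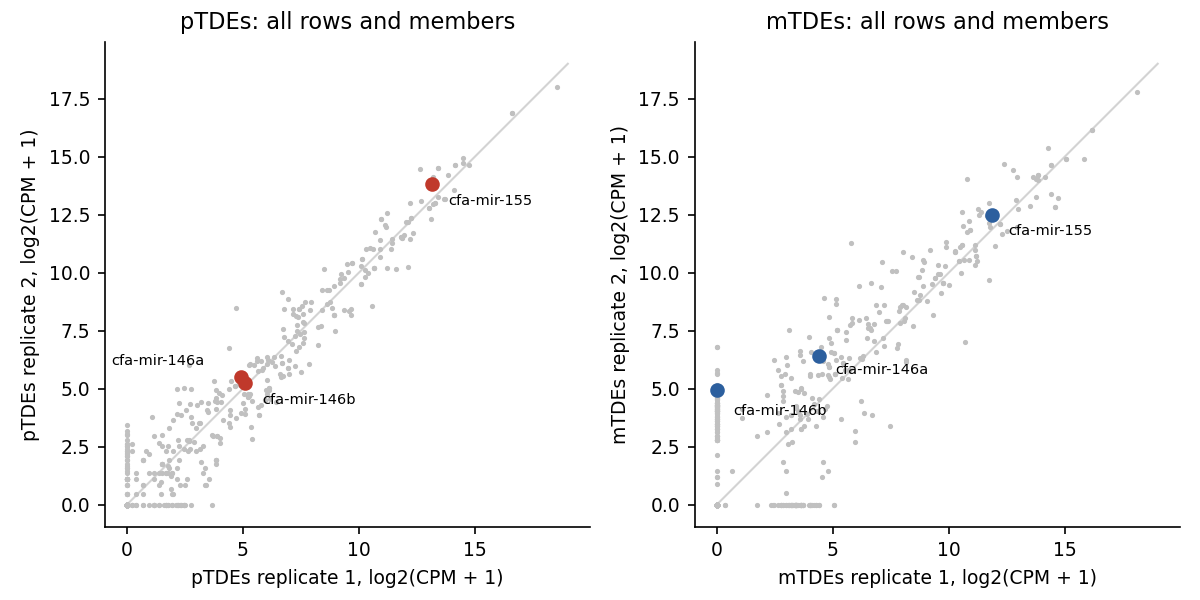
Replicate 2 against replicate 1 of pTDEs (left) and mTDEs (right) for all rows (grey) and the members (colored), both axes in log2(CPM + 1), with the line of equal levels. cfa-mir-146b lies near the line in pTDEs and at 0 in mTDE replicate 1, in the column of rows found in mTDE replicate 2 alone.

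A level of 0 in mTDE replicate 1 alone was shared by other miRNAs. In all, 32 rows, 21 of them known miRNAs, were listed at 0 in mTDE replicate 1 and above 0 in the other 3 libraries. The same pattern for the other libraries was rarer, with 7 rows for mTDE replicate 2, 5 for pTDE replicate 1 and 7 for pTDE replicate 2. Of the 32 rows, 25 reached at least 10 CPM in mTDE replicate 2. The known miRNAs with the highest level in that library were cfa-mir-133a at 111 CPM, cfa-mir-299 at 54.9 CPM and cfa-mir-485 at 48.9 CPM, and cfa-mir-146b ranked 6 with cfa-mir-133a and the identical cfa-mir-133c counted once. The patterns nearest to that of cfa-mir-146b came from the same rows, cfa-mir-323 at a distance of 0.47, cfa-mir-424 at 1.18 and cfa-mir-190b at 1.19. cfa-mir-323 was at 38.1 and 26.7 CPM in pTDEs, at 0 in mTDE replicate 1 and at 31.3 CPM in mTDE replicate 2. By mean level, at 25.0 CPM, cfa-mir-146b stood between cfa-mir-1844 at 25.6 CPM and cfa-mir-7180 at 24.3 CPM, again with gaps under their spread.

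Since miR-146a and miR-146b share a seed, their levels were also read together. cfa-mir-146b made up 53.6% of the reads of both in pTDE replicate 1 (95% Wilson interval 48.6 to 58.4%) and 45.2% in pTDE replicate 2 (40.5 to 50.1%). Neither interval excludes equal amounts, and which of the miRNAs was higher changed between the pTDE replicates. In mTDE replicate 2 its share was 26.1% of 268 reads (21.2 to 31.7%). In mTDE replicate 1 it was 0 of 70 reads (0 to 5.20%), and the limit of 3 reads came to 4.29% of those 70 reads. cfa-mir-146a was thus the higher of the pair in both mTDE libraries, and the intervals of the mTDE replicates did not overlap each other. The share was 49.4 ± 5.88% in pTDEs and 13.1 ± 18.5% in mTDEs (SD, n = 2 for each). Their sum was 62.6 and 80.9 CPM in pTDEs and 20.2 and 115 CPM in mTDEs, so the cell lines overlapped in it. As the mature forms are nearly identical, reads could have been counted for either gene, and how such reads were assigned was not tested.

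The balance of miR-155, known to promote inflammatory signaling, and miR-146a, known to hold it back, was read within each library, where a scaling of the recovered CPM cancels but the conversion from the deposited values does not. cfa-mir-155 was 310 and 323 times as high as cfa-mir-146a in the pTDE replicates and 183 and 68.3 times as high in the mTDE replicates. Both pTDE libraries were above both mTDE libraries in recovered CPM. On log2(CPM + 1) the ratio was 8.27 ± 0.05 in pTDEs and 6.76 ± 0.97 in mTDEs (SD, n = 2 for each). An exact two-sided permutation test gave p = 0.33, the smallest p-value that 2 against 2 libraries can give. With the deposited values read as CPM the cell lines overlapped and the log2 difference was 0.18 (exact p = 1.0), and in recovered CPM it was 0.82 without mTDE replicate 2 and 2.19 without mTDE replicate 1. Against the sum of both miR-146 miRNAs, cfa-mir-155 was 144 and 177 times as high in the pTDE replicates and 183 and 50.5 times as high in the mTDE replicates, and the cell lines overlapped.

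Other miRNAs linked to NF-kB showed no shared direction. The list held 10 miRNAs, of which 9 could be tested, and limma called 0 of them, against 1.84% of all rows, while 1 of 9 had an unadjusted p-value under 0.05, against 19.6% of all rows. Their median log2 fold change was 0.00, with 5 above and 4 below 0, and that of all rows tested was -0.03. The highest was cfa-mir-21, known to repress PDCD4, at 378279 and 265445 CPM in pTDEs and 280382 and 224785 CPM in mTDEs, with a log2 fold change of 0.34 (limma adjusted p = 0.65). The member with an unadjusted p-value under 0.05 was cfa-mir-147, which Toll-like receptor signaling induces in macrophages. No read of cfa-mir-147 was found in either pTDE library, while its level was 20.5 and 22.3 CPM in the mTDE replicates. The mTDE mean exceeded the mean 3-read limit of pTDEs at least 40.0-fold. Its log2 fold change was -4.49 (limma adjusted p = 0.054), just short of the threshold, and 7 of 12 other fits called it. cfa-mir-147 entered the test only through the mTDE libraries, where it was high. Its values, p-values and place in that count are therefore a description.

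The other tested members of the list had log2 fold changes from -0.68 to 1.76. cfa-mir-9-1, whose product targets NFKB1, was at 1604 and 1183 CPM in pTDEs and 852 and 749 CPM in mTDEs, with a log2 fold change of 0.79 (limma adjusted p = 0.33). cfa-mir-212, made from the same transcript as cfa-mir-132, had the highest value, 1.76, but it had no read in mTDE replicate 2 and was highest in mTDE replicate 1, at 20.5 CPM. cfa-mir-125a and cfa-mir-125b-1, whose products target the NF-kB inhibitor TNFAIP3, had values of 0.00 and -0.29. cfa-mir-181a-1 and cfa-mir-181b-2 had values of -0.68 and -0.67, and cfa-mir-132, induced by innate immune stimuli, had 0.74. cfa-mir-301a was above 0 in 1 library of each cell line, at 11.8 and 13.3 CPM, and was not tested.

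**Figure D4:**
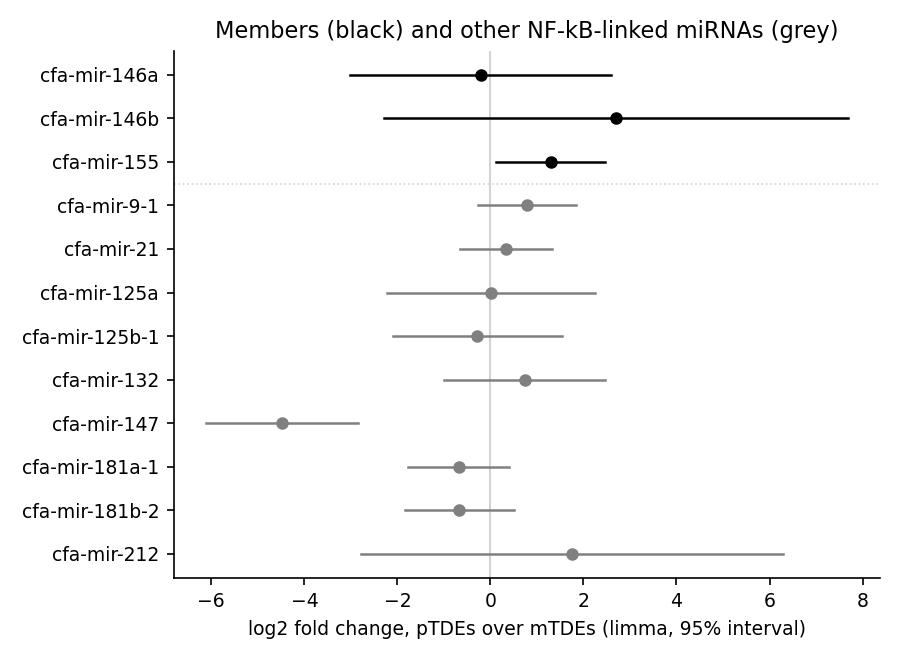
Log2 fold change of pTDEs over mTDEs with its 95% interval from limma for the 3 members (black) and the 9 tested miRNAs of the NF-kB-linked list (grey). The interval of cfa-mir-155 does not reach 0 before adjustment for multiple tests, and those of cfa-mir-146a and cfa-mir-146b span it. Of the list, only that of cfa-mir-147, which entered the test through mTDEs alone, does not span 0 and lies below it.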

How the data were processed

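Small RNA of EVs was sequenced in 4 libraries, which were grouped by the cell line and replicate number in their labels. The paper names HiSeq and NovaSeq sequencers and different read lengths, but not which library was run on which. Differences between libraries therefore cannot be told apart from such differences in sequencing. Per the paper's methods, cutadapt removed adapters and set the read length, forward and reverse reads were merged, and miRDeep2 quantified miRBase and predicted miRNAs (CanFam3.1 genome). Tool versions are not given in the sources used here. The deposited values of each library were read as a score, since their low values are unevenly spaced, although the methods call them CPM. CPM were recovered as 2^(value/s) - 1, with s set so that a library totals 1000000, and reads from the even step of the low values. Columns of the authors' own edgeR comparison (p-values, false discovery rates, a likelihood ratio score, log2 fold changes and log2 mean CPM) were deposited too and were not used.

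limma 3.58.1 in R 4.3.3 modeled log2(CPM + 1), using eBayes with a trend, for the 326 rows that both libraries of a cell line held above 0, with Benjamini-Hochberg adjustment; this scale understates changes of low miRNAs. With 2 libraries a group, the prior degrees of freedom were 2.4. The paper calls the replicates biological, but no label says that they came from separate cultures, so p-values measure the spread between these libraries. The members' rows name no arm, so reads of both arms of their hairpins cannot be told apart. Where a listed miRNA had several rows, the row with the highest mean was used. The members and lists were chosen with earlier results of these data known. Named miRNAs are the members, their neighbors in level, the 3 nearest in pattern, the highest in mTDE replicate 2 among known rows at 0 in mTDE replicate 1 only, and list members that were called, highest or at an end of the range; the other list members were named after their values were seen. Whether the deposited values have the form that the conversion assumes was not tested on other data. Other steps used Python 3.11.15, scipy 1.17.1, pandas 2.3.3 and numpy 2.4.6. Mature miRNA sequences were not used here. The alternatives were other pseudocounts (0.1 and 5 CPM), row filters, scalings, variance models, limma voom on recovered reads, a replicate block and leaving out each library.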

Additional observations from a re-analysis of the deposited data

How the results depend on the processing

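cfa-mir-155 was higher in pTDEs in all 12 other fits and in the 4 fits that each left out a library, and no fit gave it or cfa-mir-146b an adjusted p-value under 0.05 (limma). The log2 fold change of cfa-mir-155 ranged from 0.26, with the deposited values read as CPM, to 1.53, and from 0.96 to 1.63 with a library left out. That of cfa-mir-146b, which entered through pTDEs alone, ranged from 1.60 to 5.80, and from 0.21 to 5.17 with a library left out. The log2 fold change of cfa-mir-146a changed sign to 0.083 when the deposited values were read as CPM and to 0.029 under median-ratio scaling, and ranged from -1.22 to 0.80 with a library left out. Median-ratio scaling moved the median of all rows from -0.03 to 0.22. Where a group kept 1 library, that library was assumed to vary like the other group.

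The 6 calls over all rows, 0 higher and 6 lower in pTDEs, became 39 (28 and 11) when 0.1 CPM was added in place of 1, 50 (39 and 11) with deposited values read as CPM, 14 (5 and 9) under median-ratio scaling, 23 (13 and 10) with totals counted without cfa-mir-21, 13 (4 and 9) without a trend, 16 (5 and 11) with limma voom and 13 (4 and 9) with known miRNAs only. With a library left out they ranged from 0 to 41, with 0 without either mTDE library (73 and 77 at an unadjusted p under 0.05) and 41 (37 and 4) without either pTDE library. In each of these 7 fits that kept all libraries, 1 miRNA of the NF-kB-linked list was called, cfa-mir-147, which entered the test only through mTDEs. The median of that list ranged from -0.66 to 0.50 with a library left out. The share of cfa-mir-146b in both miR-146 miRNAs lay between 45.2 and 53.6% for pTDEs and between 0 and 26.1% for mTDEs with a library left out. The log2 ratio of cfa-mir-155 over cfa-mir-146a, pTDEs minus mTDEs, was 0.18 with the deposited values read as CPM and from 0.82 to 2.19 with a library left out. The 32 rows at 0 in mTDE replicate 1 alone were 21 with known miRNAs only. Nothing says that the shared replicate numbers pair the libraries (correlation of deviations 0.15, across rows). Under a replicate block, the log2 fold changes stayed at -0.21, 2.69 and 1.29, the adjusted p-values were 0.93, 0.39 and 0.23 (limma) for cfa-mir-146a, cfa-mir-146b and cfa-mir-155, and calls numbered 7. Beyond what filters remove, the cause was not tested.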
